A study of Mus musculus with 55 samples.

Results

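The respiratory chain of the inner mitochondrial membrane passes electrons from NADH and succinate to oxygen through complexes I to IV, and complex V uses the resulting proton gradient to make ATP. Most of its subunits are encoded in the nucleus and imported, and a small set is encoded by the mitochondrial genome. The nuclear genes are expressed in nearly every tissue, are driven from promoters that often hold sites for NRF1, for GABPA and for YY1, and include a few subunits with tissue-restricted forms, mostly in complex IV. The genes described here were all those of the mouse RNA tables whose symbols begin with Nduf and a subunit letter, Sdh, Uqcr, Cox4 to Cox8 or Atp5, with pseudogene symbols left out. They numbered 85 of 15479 genes in the table of PRMK and PRM organoids: 36 for complex I, 8 for complex II, 8 for complex III, 16 for complex IV and 17 for complex V. The table of sgMeis2 and sgScramble organoids lists more genes, and 89 of its 51912 matched. The rule used symbols and no measured value, though it was set with earlier results of these data known. The prefix also took in 4 assembly factors of complex II, Sdhaf1 to Sdhaf4, which are not subunits. It missed Ndufab1 and Cyc1, subunits of complexes I and III, the electron carrier Cycs and the complex V inhibitor Atpif1.

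The study modelled small cell lung cancer, a neuroendocrine tumour, in mouse lung organoids injected into the left lung lobe of recipient mice, and organoids were harvested again from those mice. PRMK organoids carry guides against Trp53, Rb1 and Kmt2c and overexpress Myc from a retroviral vector, and PRM organoids carry the same without the Kmt2c guide. KMT2C is a methyltransferase for lysine 4 of histone H3. In the second comparison, sgMeis2 organoids are PRMK organoids with a further guide against Meis2, a homeobox transcription factor, and sgScramble organoids are PRMK organoids with a scrambled guide. Each of the 4 RNA groups had 3 libraries, with 12013253 to 24389041 counts per library. Peak lists covered H3K4me3, H3K4me2, H3K4me1, KMT2C and open chromatin (ATAC) with 2 libraries a group, in lung PRMK organoids, for some marks in PRM organoids taken from the liver, and in lung PRM organoids. The labels of the PRMK RNA libraries list no Kmt2c guide, the first lung PRMK library of H3K4me2, H3K4me3 and KMT2C is listed with a Meis2 guide and the second with a scrambled guide, and of the RNA libraries here the labels give a stranded kit for the PRM ones alone. Library preparation and genotype therefore cannot be told apart. Nothing says that replicates came from separate animals or cultures, so p-values measure only the spread between these libraries, which may be technical.

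The libraries were not alike within groups. Kmt2c itself had 85.1, 84.4 and 105 counts scaled to library size (CPM, for a library of 1e6 counts) in PRMK libraries, against 113, 187 and 67.6 CPM in PRM libraries 4 to 6, and the groups overlapped. Reads of an edited transcript are still counted, so these values do not check the edit. Myc had 273, 312 and 205 CPM in PRMK libraries, against 1140, 2306 and 2059 CPM in PRM libraries 4 to 6, without overlap; its part in the results on these groups was not tested. PRM 6 stood apart: the 7 neuroendocrine markers in the table summed to 112 CPM there, against 2955 to 5613 CPM in the other 5 libraries. None of the 7 was at 0. The 3 non-neuroendocrine markers in the table summed to 215 CPM in PRM 6, against 22.2 to 30.7 CPM elsewhere, and mitochondrially encoded genes took 5.35% of its counts, against 2.29% to 2.62% elsewhere. PRM 5 had the lowest sums of endothelial, fibroblast and immune markers, at 0.785, 2.58 and 5.94 CPM, with 3 of the 6 fibroblast markers and 1 of the 5 immune markers at 0. The 4 endothelial markers summed to 23.5 to 200 CPM in PRMK libraries, against 0.785 to 38.6 CPM in PRM libraries. The 3 of them that were tested lay above 0, with a median log2 fold change of 2.87. For 2 of the 3 the groups did not overlap, with PRMK higher, beside 15.1% of all genes tested. DESeq2 called 1 higher, beside 3.9% of all genes tested, and edgeR called 0, beside 0%. The part of endothelial RNA in the results was not tested. Medians of the lists and the values of some genes in PRMK and PRM organoids are therefore also given without PRM 6. Other results on these groups include it. In bulk RNA, fewer cells of a type and less RNA per cell cannot be told apart.

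Between PRMK and PRM organoids, no respiratory chain gene passed the test. Of 83 genes that passed the filter on low counts, 0 were called by edgeR's quasi-likelihood test at an adjusted p under 0.05, and the background was 0% of 13914 genes tested. At an unadjusted p under 0.05, 2 genes were higher in PRMK organoids, Cox6a1 and Ndufv3, or 2.41% against 7.03% of all genes tested. Another 6 were lower, Atp5g3, Atp5l, Ndufs1, Cox7c, Ndufv1 and Uqcrc1, or 7.23% against 10.1%. edgeR's likelihood ratio test also called 0 of the 83 (3.26% of all genes), and DESeq2 called 1, Atp5l, which was lower (1.2% against 8.75% of all genes in either direction, 4.86% lower and 3.9% higher). The authors' deposited table called 0 at an adjusted p under 0.05, against 6.54% of the same genes. Cox4i2 and Cox8b were too low to be tested. Many of these genes have processed copies elsewhere in the genome, and the sources used here do not say how the authors' counting treated shared reads or strand, so values of such genes are uncertain.

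Large fold changes were rarer than among all genes tested. A log2 fold change of 1 or more in either direction was reached by 2 of 83 genes, or 2.41%, against 24.3% of all genes tested. These were Cox6b2 and Ndufb2, the second named after its values were seen. Among genes averaging at least 10 CPM the shares were 1.28% (1 of 78) and 17.4%. Of the 83, 29 lay above 0 and 54 below, with a median log2 fold change of -0.11, beside -0.02 for all genes tested. Without PRM 6, 50 lay above 0 and 33 below and the median was 0.10, beside 0.01 for all genes, so the sign of this median rested on 1 library.

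**Figure D1:**
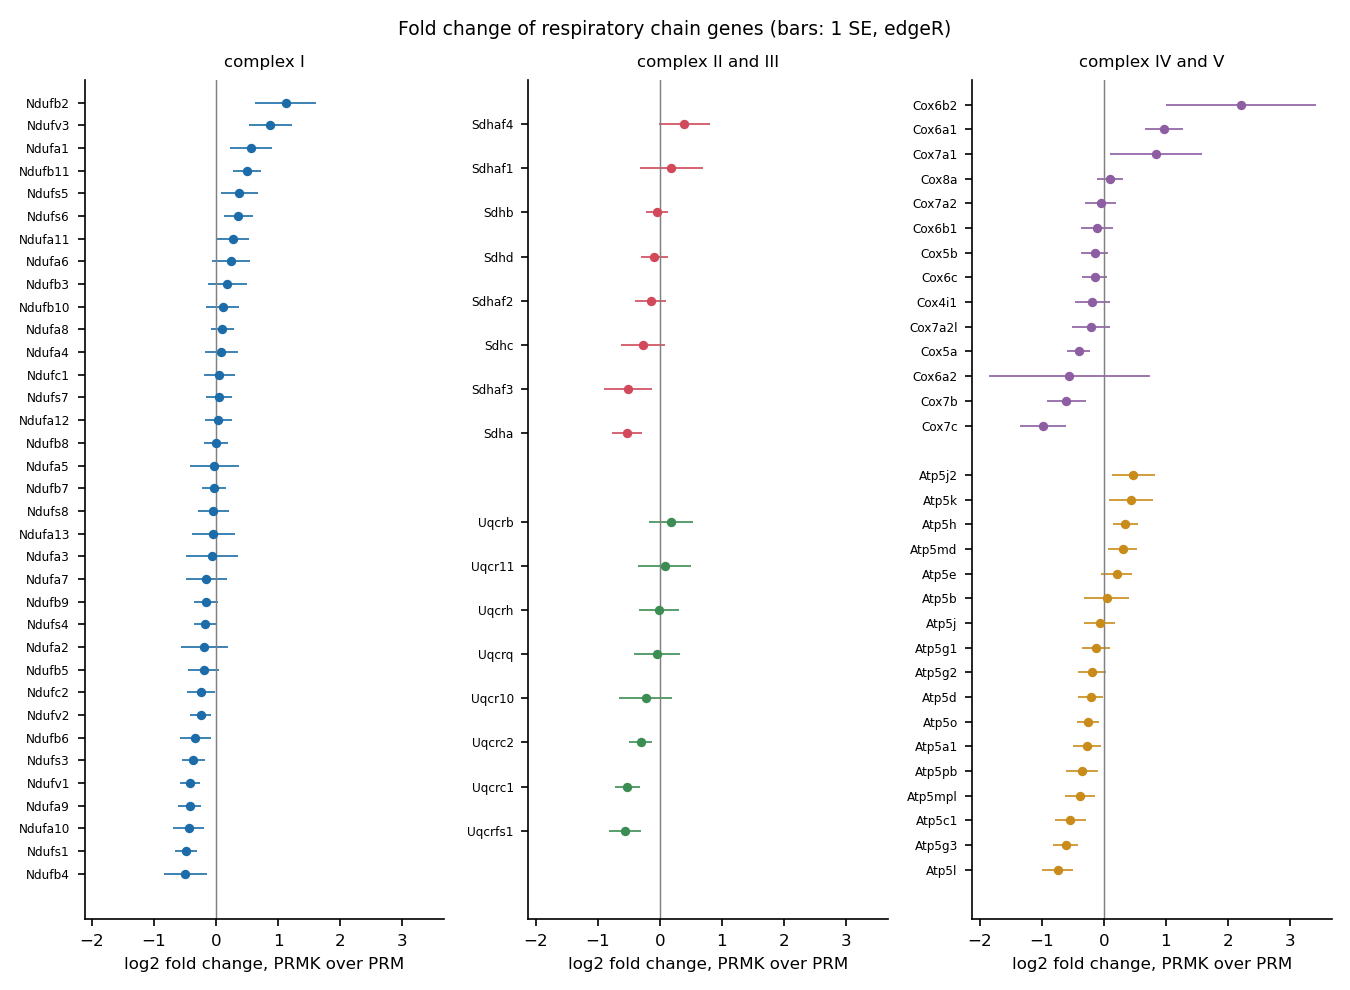
Log2 fold change of PRMK over PRM organoids for all but 1 of the 83 genes tested, in 3 panels by complex, with bars of 1 standard error (edgeR, 3 libraries a group). Most points lie within 1 of the zero line on either side; Cox6b2, at 2.21, has a bar of 1.20.

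The plot of fold changes by complex shows little separation between complexes. The median log2 fold change was -0.03 for complex I, -0.12 for complex II, -0.14 for complex III, -0.15 for complex IV and -0.19 for complex V. Without PRM 6 the medians were 0.19, 0.05, 0.28, 0.09 and 0.01 in the same order. Taken library by library, the spread lay in the PRM group. The median deviation of 78 genes from the other 5 libraries, on the log2(CPM + 1) scale, was -0.02, -0.04 and -0.02 in PRMK libraries, against 0.04, -0.27 and 0.41 in PRM libraries 4 to 6. In PRM 5, 53 of the 78 genes were below the other libraries, and in PRM 6, 64 were above. The standard deviation of these values over genes was 0.27, 0.22 and 0.27 in PRMK libraries, against 0.46, 0.73 and 0.56 in PRM libraries; for all 10103 genes at that level it was larger in each library, at 0.56, 0.53 and 0.66 and at 0.78, 1.20 and 1.44. The genes took 1.16%, 1.13% and 1.15% of the counts in PRMK libraries, against 1.08%, 0.921% and 1.36% in PRM libraries. The PRMK shares thus lay within the PRM range. PRM 6 had the highest respiratory chain share, the highest mitochondrially encoded share and the lowest neuroendocrine marker level; the part of these in the result was not tested.

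**Figure D2:**
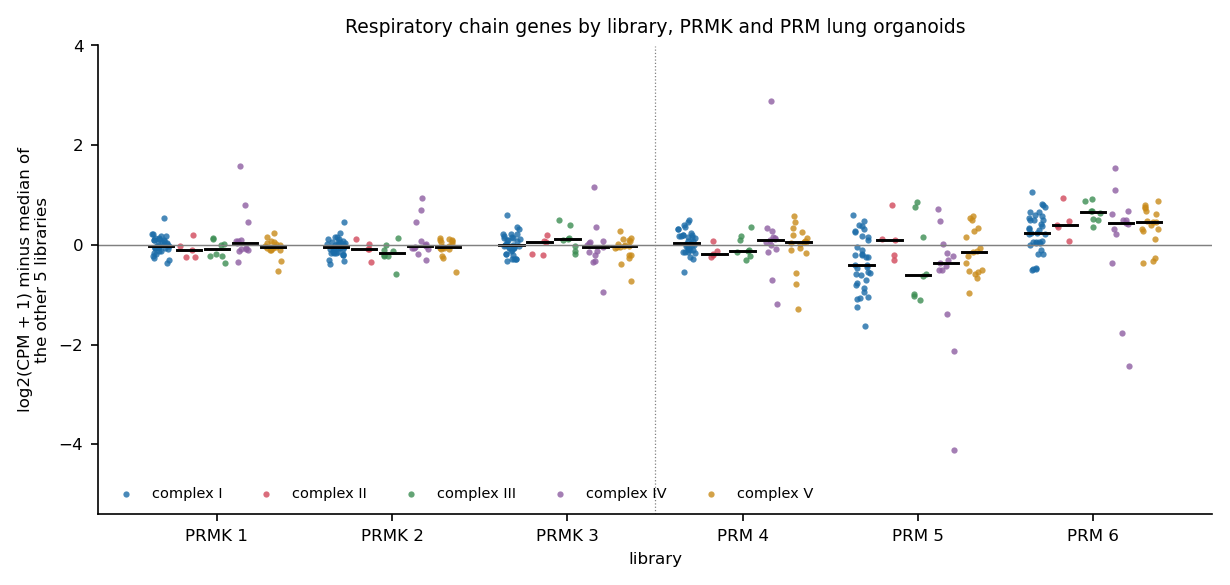
Each point is 1 gene's log2(CPM + 1) in 1 library minus its median in the other 5 libraries, coloured by complex, with a black line at each complex's median; 78 genes averaging at least 10 CPM are shown. PRMK libraries lie close to 0, PRM 5 lies mostly below it and PRM 6 mostly above it.

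Complex I takes electrons from NADH. Its nuclear-encoded core subunits, among them Ndufs1 and Ndufv1, bind the flavin and iron-sulfur clusters that carry them, and the other subunits surround that core. Of the 7 core genes, 6 lay below 0 with a median log2 fold change of -0.29, and for 5 of them every PRMK library was below every PRM library. Of the other 29 genes, 14 lay above 0 and 15 below, with a median of 0.00. Over all 83 genes, groups without overlap were counted 7 times with PRMK higher (8.43%, against 15.1% of all genes tested) and 18 times with PRMK lower (21.7%, against 14.6%). Among genes averaging at least 10 CPM these counts were 6 and 17 of 78, beside 1458 and 1781 of 10103 genes tested. Without PRM 6, 5 of the 7 core genes lay below 0, with a median of -0.23, and 19 of the other 29 lay above 0, with a median of 0.20. Leaving out PRM 4 or PRM 5 put all 7 core genes below 0. In PRM 5 the core genes had a median deviation of 0.16, and the other complex I genes one of -0.50, with 23 of 28 below 0. The split between core and other subunits was drawn with earlier results known, and the difference between them was not tested.

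Ndufs1, the largest core subunit, which holds several iron-sulfur clusters, had 77.8, 87.2 and 82.6 CPM in PRMK libraries, against 100, 115 and 131 CPM in PRM libraries. Every PRMK library was below every PRM library, and the highest was PRM 6. In edgeR, p was 0.0359 unadjusted and 0.265 adjusted (log2 fold change -0.48, SE 0.18). Ndufv3, a small accessory subunit of the NADH-binding module, ran the other way. It had 84.8, 80.8 and 89.3 CPM in PRMK libraries, against 55.0, 25.4 and 58.3 CPM in PRM libraries. Its groups did not overlap, with PRM 5 well below the rest (log2 fold change 0.88, SE 0.34, edgeR adjusted p = 0.274). Ndufb4, a membrane-arm accessory subunit, was the lowest of complex I by fold change at -0.50 (SE 0.34, edgeR adjusted p = 0.489), with 25.7, 25.3 and 28.3 CPM in PRMK libraries, against 32.3, 24.7 and 55.1 CPM in PRM libraries. Its groups overlapped: PRM 6 was the highest, and the other PRM libraries lay on either side of the PRMK values. Without PRM 6 the fold change was -0.10. Ndufa4, counted here under complex I by its symbol though now assigned to complex IV, had 142, 149 and 150 CPM in PRMK libraries, against 122, 102 and 191 CPM in PRM libraries, with PRMK inside the PRM range.

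Complex II, succinate dehydrogenase, is the only complex with no mitochondrially encoded subunit. Sdha, its flavoprotein, had 246, 274 and 257 CPM in PRMK libraries, against 291, 481 and 352 CPM in PRM libraries. All PRMK values were below all PRM values, and PRM 5 was the highest (log2 fold change -0.53, SE 0.24, edgeR adjusted p = 0.317; -0.31 without PRM 5). Its iron-sulfur partner Sdhb had 116, 131 and 139 CPM in PRMK libraries, against 117, 143 and 138 CPM in PRM libraries, nearly the same range (log2 fold change -0.04, SE 0.18). The 4 assembly factors had log2 fold changes from -0.51 (Sdhaf3) to 0.39 (Sdhaf4), none of which passed the test.

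Complex III passes electrons from ubiquinol to cytochrome c. Uqcrfs1, the Rieske iron-sulfur protein, had 133, 129 and 150 CPM in PRMK libraries, against 138, 249 and 221 CPM in PRM libraries. PRM 4 lay among the PRMK values, and the other PRM libraries lay above them (log2 fold change -0.56, SE 0.26, edgeR adjusted p = 0.331). The fold change was -0.82 without PRM 4 and -0.38 without PRM 5. Uqcrb, a small subunit at the ubiquinone site, had 59.6, 50.9 and 59.9 CPM in PRMK libraries, against 54.0, 27.2 and 69.2 CPM in PRM libraries, overlapping and lowest in PRM 5 (log2 fold change 0.18, SE 0.36).

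In complex IV, cytochrome c oxidase, the mitochondrial genome encodes the catalytic core and the nucleus encodes the smaller subunits, several of them in pairs of a widespread and a tissue-restricted form. Cox6a1, the widespread form of subunit 6a, had 718, 711 and 672 CPM in PRMK libraries, against 294, 257 and 520 CPM in PRM libraries. Every PRMK library exceeded every PRM library, and PRM 6 lay nearest to them. Its unadjusted p of 0.0196 was the lowest of the 83 (log2 fold change 0.97, SE 0.31). After adjustment p was 0.234 in edgeR and 0.0827 in DESeq2. In PRM 4, the low value was shared with its chromosome: all 655 genes of chromosome 5 above 10 CPM had a median deviation of -0.88 there, and the 3 respiratory chain genes on it, Cox6a1, Atp5k and Atp5j2, one of -1.19. In PRM 5 the same 3 genes had a median of -0.96, while the chromosome's genes had one of 0.16. Also in PRM 5, all 363 genes of chromosome 13 above 10 CPM had a median deviation of 0.71. The 6 respiratory chain genes on that chromosome, Cox7c among them, had one of 0.45. The part of these chromosome-wide values in the results was not tested.

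Cox6a2, the form of heart and skeletal muscle, had 14.5, 9.03 and 4.20 CPM in PRMK libraries, against 37.4, 1.29 and 1.96 CPM in PRM libraries. PRM 4 was the highest of the 6 and the other PRM libraries the lowest, and the log2 fold change of -0.55 (SE 1.30) became 2.45 without PRM 4. Cox6b2, described as a testis form, had 20.9, 19.4 and 26.8 CPM in PRMK libraries, against 11.5, 0.168 and 2.76 CPM in PRM libraries. Its groups did not overlap, and the PRM values differed widely among themselves (log2 fold change 2.21, SE 1.20, edgeR adjusted p = 0.391). The fold change was 3.89 without PRM 4 and 1.64 without PRM 5. Its widespread counterpart Cox6b1 had 139, 130 and 137 CPM in PRMK libraries, against 130, 110 and 199 CPM in PRM libraries, with overlap. Cox7c, with no tissue form, had 63.7, 60.7 and 59.3 CPM in PRMK libraries, against 68.7, 105 and 188 CPM in PRM libraries. PRMK libraries agreed closely and lay just under PRM 4, while PRM 6 was far above (log2 fold change -0.98, SE 0.38, edgeR adjusted p = 0.272; -0.50 without PRM 6). Cox7b had 81.6, 84.7 and 77.8 CPM in PRMK libraries, against 103, 85.6 and 182 CPM in PRM libraries, with no overlap by a narrow margin at PRM 5 (log2 fold change -0.60, SE 0.31, edgeR adjusted p = 0.368; -0.21 without PRM 6).

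The remaining widespread forms overlapped between the groups. Cox4i1 had 274, 289 and 227 CPM in PRMK libraries, against 306, 205 and 386 CPM in PRM libraries. Cox7a2 had 109, 114 and 119 CPM in PRMK libraries, against 114, 84.9 and 155 CPM in PRM libraries, and its relative Cox7a2l, which acts in supercomplex assembly, had 98.8, 105 and 108 CPM in PRMK libraries, against 116, 75.7 and 169 CPM in PRM libraries. Cox8a had 250, 238 and 237 CPM in PRMK libraries, against 217, 184 and 275 CPM in PRM libraries. In each, PRMK lay inside the PRM range, and PRM 5 was lowest and PRM 6 highest. The muscle form Cox7a1 had 4.06, 1.83 and 2.97 CPM in PRMK libraries, against 3.19, 0.673 and 1.07 CPM in PRM libraries. Cox4i2, a form induced by low oxygen in lung, had 3, 1 and 1 counts in PRMK libraries, against 4, 3 and 28 counts in PRM libraries. Cox8b, a muscle form, had 13, 1 and 5 counts in PRMK libraries, against 3, 8 and 0 counts in PRM libraries, where a count of 0 in PRM 6 allows up to 0.25 CPM. The 6 muscle markers in the table summed to 5.43 to 13.2 CPM in PRMK libraries, against 2.63 to 8.26 CPM in PRM libraries. Of the 5 tested, 3 lay above 0 and 2 below, with log2 fold changes from -0.47 to 5.18. DESeq2 called 1 higher (3.9% of all genes tested) and edgeR 0. For 1 the groups did not overlap, with PRMK higher (15.1% of all genes tested). The part of muscle transcripts in the isoform values was not tested.

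**Figure D3:**
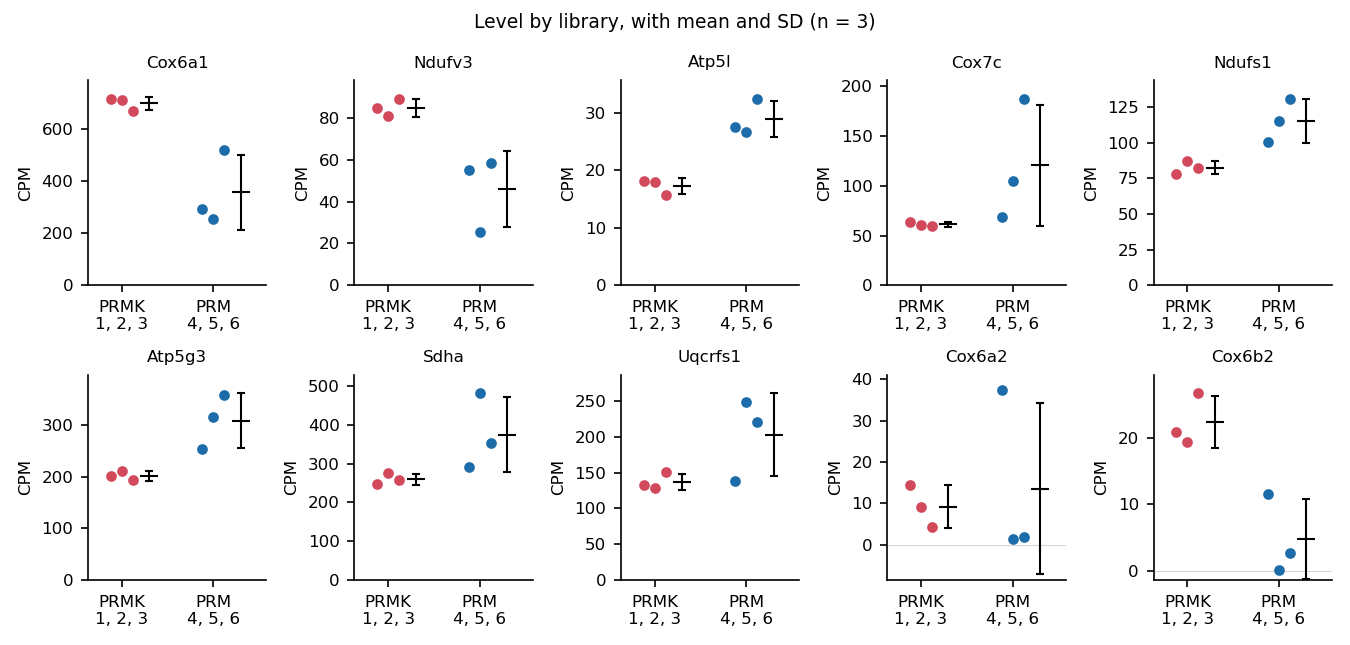
CPM in each library for 10 genes of complexes I to V, PRMK in red and PRM in blue, with the mean and standard deviation to the right of each group (n = 3); axes differ between panels. Cox6a1 and Ndufv3 lie higher in PRMK libraries and Atp5l, Ndufs1 and Atp5g3 lower, and the PRM points are the more scattered.

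Complex V, ATP synthase, consists of a catalytic head, a ring of c subunits and a peripheral stalk. Atp5l, the g subunit of the membrane part, had 18.1, 18.0 and 15.6 CPM in PRMK libraries, against 27.4, 26.6 and 32.4 CPM in PRM libraries. The groups did not overlap. Adjusted p-values of its log2 fold change of -0.74 (SE 0.25) were 0.237 in edgeR, 0.0174 in DESeq2 and 0.0513 in the authors' deposited table. The c subunit is made from 3 genes that differ in the imported leader and share the mature protein. Atp5g3 had 201, 211 and 193 CPM in PRMK libraries, against 253, 315 and 358 CPM in PRM libraries, without overlap (log2 fold change -0.61, SE 0.20, edgeR adjusted p = 0.235). Atp5g1 had 40.0, 44.0 and 40.0 CPM in PRMK libraries, against 41.5, 38.1 and 55.6 CPM in PRM libraries. Atp5g2 had 85.9, 90.0 and 75.1 CPM in PRMK libraries, against 90.2, 76.8 and 120 CPM in PRM libraries. Both of these overlapped, while Atp5g3 did not; the difference between the 3 genes was not tested. Atp5j2, the f subunit, had the highest fold change of complex V, 0.48 (SE 0.34, edgeR adjusted p = 0.504), with 145, 156 and 152 CPM in PRMK libraries, against 61.9, 106 and 158 CPM in PRM libraries, lowest in PRM 4. The fold change was 0.14 without PRM 4 and 0.85 without PRM 6.

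DESeq2 made more calls once 1 PRM library was left out: 20 genes without PRM 4, of which 7 were higher and 13 lower, against 28.5% of all genes tested in that fit, 4 without PRM 5 (10.1% of all genes) and 5 without PRM 6 (15.1%), the last being Atp5b, Atp5k, Atp5l, Cox6a1 and Ndufv3. Leaving out any PRMK library gave 0. Shares of all genes are not given for those fits, or by direction for the fit without PRM 4. The 0 and the split by direction are therefore not read as particular to these genes. edgeR called 0 of the 83 without any 1 library. It also called 0 of all 13914 genes tested with all libraries, and 0 of 14288 without PRMK 1. Without PRM 6 the log2 fold change was 1.35 for Cox6a1, 1.08 for Ndufv3, -0.38 for Ndufs1, -0.49 for Atp5g3 and -0.64 for Atp5l.

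Among genes that work with the chain, DESeq2 called several that edgeR did not. Of 13 regulators, 11 lay below 0 with a median log2 fold change of -0.45, and DESeq2 called 3 lower, where it called 4.86% of all genes tested lower. Pprc1, a coactivator related to PGC-1, had 43.8, 53.3 and 42.6 CPM in PRMK libraries, against 93.7, 204 and 149 CPM in PRM libraries (log2 fold change -1.68, SE 0.32, adjusted p = 0.19 by edgeR and 0.000563 by DESeq2). Ppargc1b, PGC-1 beta, had 2.61, 2.77 and 2.38 CPM in PRMK libraries, against 6.48, 11.9 and 19.7 CPM in PRM libraries (log2 fold change -2.29, SE 0.52, adjusted p = 0.192 by edgeR and 0.00111 by DESeq2). Lrpprc, which stabilizes mitochondrial mRNA, had 82.2, 88.6 and 84.5 CPM in PRMK libraries, against 130, 219 and 162 CPM in PRM libraries (log2 fold change -1.001, SE 0.24, adjusted p = 0.192 by edgeR and 0.0101 by DESeq2). For all 3, every PRM library, PRM 6 among them, lay above every PRMK library. The genes of the transcription factors NRF1, GABPA and YY1, for which such promoters often hold sites, were called by neither tool. Nrf1 averaged 68.2 ± 2.44 CPM in PRMK and 70.5 ± 9.26 CPM in PRM organoids, Gabpa 60.3 ± 2.50 CPM in PRMK and 82.2 ± 24.98 CPM in PRM organoids, and Yy1 212 ± 5.56 CPM in PRMK and 243 ± 12.9 CPM in PRM organoids (SD, n = 3 each).

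Of 77 tested genes of the mitochondrial ribosome, 68 lay below 0, with a median of -0.41. Every PRMK library was below every PRM library for 39 of them. That held for 14.6% of all genes tested, and for 1781 of the 10103 averaging at least 10 CPM. edgeR called 0 and DESeq2 6 of the 77, all lower, beside 4.86% of all genes tested. Of 17 genes of the tricarboxylic acid cycle and pyruvate dehydrogenase, which supply the NADH and succinate that complexes I and II oxidize, 12 lay below 0 with a median of -0.45. DESeq2 called 3 of the 17 lower, Idh3a, Idh3b and Suclg1. Idh3b averaged 109 ± 4.12 CPM in PRMK and 202 ± 43.8 CPM in PRM organoids (SD, n = 3 each; DESeq2 adjusted p = 0.00964, edgeR adjusted p = 0.195). Of 44 assembly factors, 28 lay below 0 with a median of -0.17, and DESeq2 called 2 of the 44 lower, Ndufaf6 and Sco1, beside the same 4.86% of all genes. Without PRM 6 the medians of these lists were -0.32 for regulators, -0.25 for the mitochondrial ribosome, -0.19 for the cycle and -0.05 for assembly factors, beside 0.10 for the respiratory chain genes. In that fit 12 of 13 regulators, 59 of 77 ribosomal genes and 11 of 17 cycle genes lay below 0. No test compared the lists with one another.

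Of 13 mitochondrially encoded subunits, 12 lay below 0, with a median log2 fold change of -0.58. The values followed PRM 6, where the 12 genes averaging at least 10 CPM were all above the other libraries, by a median of 1.30; without that library 9 of 13 lay below 0 and the median was -0.20. mt-Atp8 was the exception, at 16.03 ± 2.72 CPM in PRMK and 2.54 ± 1.95 CPM in PRM organoids (SD, n = 3 each; log2 fold change 2.65, DESeq2 adjusted p = 0.00146, edgeR adjusted p = 0.193). It overlaps mt-Atp6, so how reads were shared between them is uncertain. Of the genes the prefix missed, Cyc1 averaged 174 ± 4.03 CPM in PRMK and 223 ± 56.0 CPM in PRM organoids, and Ndufab1 14.6 ± 0.955 CPM in PRMK and 18.7 ± 3.09 CPM in PRM organoids (SD, n = 3 each). Cycs averaged 130 ± 16.7 CPM in PRMK and 166 ± 25.3 CPM in PRM organoids, and Atpif1 32.6 ± 3.27 CPM in PRMK and 23.95 ± 4.49 CPM in PRM organoids (SD, n = 3 each). None of the 4 passed either test.

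Adding a Meis2 guide to PRMK organoids gave no called change in the respiratory chain. Meis2 had 219, 224 and 137 CPM in sgMeis2 libraries, against 259, 227 and 233 CPM in sgScramble libraries. The groups did not overlap, but sgMeis2 2 lay just under sgScramble 2. Of 84 genes tested, edgeR called 0 (0% of 16260 genes tested), its likelihood ratio test 0 (0.191%) and DESeq2 0 (0.135%, of which 0.0185% higher and 0.117% lower), and 0 were called in the authors' deposited table (0.111%). A log2 fold change of 1 or more was reached by 0 of 84 genes (1% of all genes) and by 0 of the 78 averaging at least 10 CPM (0.107%). No gene had an unadjusted p under 0.05, where 2.2% of all genes were higher and 2.47% lower. Exactly 42 lay above 0 and 42 below, with a median log2 fold change of -0.01. Groups without overlap were found for 0 genes with sgMeis2 higher (8.12% of all genes) and for 11 with sgMeis2 lower (13.1%, against 7.92%).

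The spread lay within the sgMeis2 group. In sgMeis2 3, the standard deviation of the genes' deviations from the other 5 libraries was 0.86, beside 0.53 for all 10262 genes averaging at least 10 CPM; in the other 5 libraries it was 0.06 to 0.08 for the respiratory chain genes. There, 15 of 78 genes (19.2%, against 4.72% of all genes) lay at least 1 from the others on the log2 scale, 7 above and 8 below, and the other 5 libraries held none. Those above were Ndufb5, Ndufc2, Uqcrb, Uqcrfs1, Atp5e, Atp5h and Atp5mpl. Those below were Ndufa3, Ndufa12, Ndufb4, Uqcrq, Cox5b, Cox7a2, Cox8a and Atp5g2. Genes of complexes I, III and V were in both lists, those of complex IV only in the second, and those of complex II in neither. Mitochondrially encoded genes took 0.437% of the counts in sgMeis2 3, against 3.38% to 3.61% in the other 5 libraries, and all 12 genes averaging at least 10 CPM were below, by a median of -3.50. Over the whole comparison, 12 of 12 tested mitochondrially encoded genes lay below 0, with a median log2 fold change of -0.56; without sgMeis2 3 the median was -0.04. The correlation of log2 CPM over genes was 0.926 to 0.932 between sgMeis2 3 and the others, and at least 0.991 among those. The part of this library's makeup in the gene values was not tested.

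**Figure D4:**
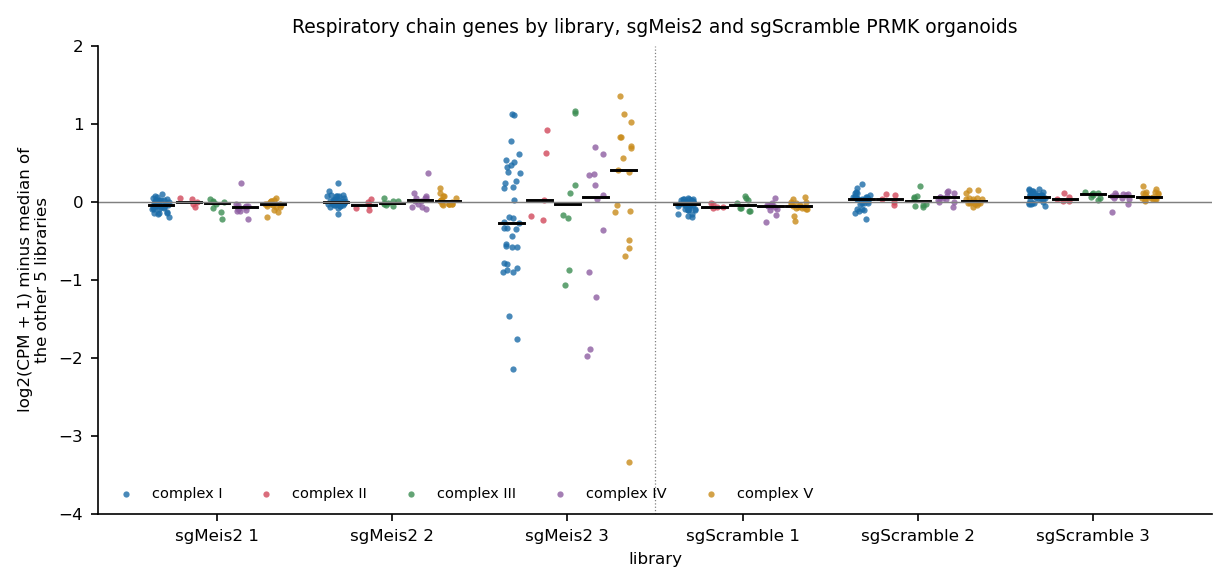
Each point is 1 gene's log2(CPM + 1) in 1 library minus its median in the other 5, coloured by complex, with a black line at each complex's median, for 78 genes averaging at least 10 CPM. sgMeis2 3 spreads from -3.34 to 1.35, and the other 5 libraries stay near 0.

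Single genes show the same. Atp5g2, one of the 3 genes for the c subunit, had 77.3, 79.4 and 6.97 CPM in sgMeis2 libraries, against 82.1, 78.5 and 81.6 CPM in sgScramble libraries. Atp5g3, which makes the same mature protein, had 222, 224 and 397 CPM in sgMeis2 libraries, against 216, 230 and 239 CPM in sgScramble libraries. They stood on opposite sides in sgMeis2 3 and lay within or next to the sgScramble range in sgMeis2 1 and 2, while Atp5g1, at 48.0, 52.7 and 46.5 CPM in sgMeis2 libraries, against 45.6, 46.7 and 52.1 CPM in sgScramble libraries, did not stand out. Cox8a had 244, 261 and 65.6 CPM in sgMeis2 libraries, against 252, 264 and 267 CPM in sgScramble libraries. Cox7a2 had 107, 112 and 29.5 CPM in sgMeis2 libraries, against 109, 112 and 115 CPM in sgScramble libraries. Both were low in sgMeis2 3 alone. Cox4i1, which folds into the same enzyme, was high there, with 117, 113 and 192 CPM in sgMeis2 libraries, against 118, 123 and 121 CPM in sgScramble libraries.

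In the other complexes the pattern was alike. Atp5e, the epsilon subunit of ATP synthase, had 153, 161 and 413 CPM in sgMeis2 libraries, against 158, 167 and 165 CPM in sgScramble libraries. Ndufa3 had 38.5, 38.1 and 7.94 CPM in sgMeis2 libraries, against 37.9, 43.2 and 41.1 CPM in sgScramble libraries, and Ndufb5, another membrane-arm subunit of complex I, had 38.3, 39.7 and 87.2 CPM in sgMeis2 libraries, against 39.3, 35.7 and 39.9 CPM in sgScramble libraries. Each of these differed in sgMeis2 3 and overlapped the sgScramble range or lay next to it otherwise. Uqcrfs1 had 166, 166 and 374 CPM in sgMeis2 libraries, against 152, 159 and 172 CPM in sgScramble libraries. Uqcrq, another subunit of complex III, had 149, 152 and 75.1 CPM in sgMeis2 libraries, against 160, 158 and 165 CPM in sgScramble libraries. In complex II, the membrane anchor Sdhd had 148, 148 and 130 CPM in sgMeis2 libraries, against 142, 158 and 161 CPM in sgScramble libraries, while its partner Sdhc had 110, 113 and 209 CPM in sgMeis2 libraries, against 107, 109 and 114 CPM in sgScramble libraries. The edgeR adjusted p of these genes was 0.754 to 0.785, apart from Atp5g1, at 0.917.

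Without sgMeis2 3, 22 of the 84 genes lay above 0 and 62 below, with a median of -0.03. The split over all genes in that fit is not given here. In it edgeR called 0 of the 84, while it called 46 of 16565 genes. The lowest edgeR adjusted p of a respiratory chain gene was then 0.275. The median deviation of 78 genes from the other 5 libraries was -0.04 in sgMeis2 1 and -0.001 in sgMeis2 2. It was -0.05, 0.03 and 0.07 in sgScramble 1 to 3, so sgScramble 1 lay below both of these sgMeis2 libraries. With all libraries the lowest unadjusted p-values belonged to Sdhaf3 (0.0679), Ndufa1 (0.0954), Uqcr10 (0.0963), Atp5k (0.114) and Uqcrfs1 (0.121). Ndufa1 had 30.8, 34.3 and 23.3 CPM in sgMeis2 libraries, against 34.3, 35.3 and 37.6 CPM in sgScramble libraries, where the groups came within a rounding of each other at 34.3 CPM (log2 fold change -0.28, edgeR adjusted p = 0.754; -0.14 without sgMeis2 3). Uqcr10 had 88.5, 93.8 and 86.0 CPM in sgMeis2 libraries, against 96.8, 97.3 and 100 CPM in sgScramble libraries, without overlap (log2 fold change -0.13, SE 0.07, edgeR adjusted p = 0.754).

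The tissue-restricted forms are given here whatever their level. Cox6a2 had 26.4, 29.0 and 18.9 CPM in sgMeis2 libraries, against 21.6, 24.5 and 22.3 CPM in sgScramble libraries, and Cox6b2 had 6.12, 6.54 and 7.40 CPM in sgMeis2 libraries, against 7.96, 6.21 and 7.06 CPM in sgScramble libraries. Both pairs of groups overlapped. Cox7a1 had 0.475, 0.457 and 0.912 CPM in sgMeis2 libraries, against 0.230, 0.616 and 0.413 CPM in sgScramble libraries, and Ndufa4l2, a relative of Ndufa4 known as a hypoxia target, had 0.686, 0.503 and 0.429 CPM in sgMeis2 libraries, against 0.920, 0.711 and 0.537 CPM in sgScramble libraries. Cox7b2 and Cox8c, described as testis forms, had 0 counts in all 6 libraries, which allows up to 0.123 to 0.162 CPM in each. Values of this table and of the PRMK and PRM table were counted separately and are not compared.

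At the promoters, H3K4me3 and H3K4me2 peaks were listed at nearly all respiratory chain genes in PRMK and PRM organoids, and H3K4me1 peaks at few. Peaks with the KMT2C antibody were listed at fewer in lung PRM than in lung PRMK libraries, as they were over all genes tested. PRMK organoids carry the Kmt2c guide, and whether these peaks mark KMT2C was not tested. Of the 85 genes, 71 had a start in the RefSeq promoter table for GRCm38.p6, and a gene was counted as marked where a listed peak came within 1000 bp of a start. H3K4me3, the mark of active promoters, was listed at 69 and 70 of 71 in lung PRMK libraries (97.2% and 98.6%), against 69 and 68 in lung PRM libraries (97.2% and 95.8%); over 10959 genes tested with a start the shares were 86.9% to 89.1%. All 4 libraries had a peak at 68 genes, or 95.8%, beside 84.5% of all genes tested. No gene had the peak in each library of one group and in none of the other, where the background was 0.365% for PRMK alone and 0.666% for PRM alone. Only Cox8b had none, and its RNA was near 0 as well. All 32 complex I genes, 7 of complex II, 5 of complex III and 15 of complex V with a start had the peak in every library.

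H3K4me2 was listed at 70 and 70 of 71 in lung PRMK libraries (98.6% and 98.6%), against 67 and 68 in lung PRM libraries (94.4% and 95.8%). In the same order, the shares of all genes tested were 91.9% and 90%, against 85.2% and 87.5%. Cox7a1, the muscle form, had it in both PRMK libraries and in neither PRM library (1.41%, beside 1.57% of all genes tested), and no gene had the reverse (0.128% of all genes). H3K4me1, which marks enhancers and promoter flanks and is the main product of KMT2C, was rare here. It was listed at 11 and 6 genes in lung PRMK, 5 and 12 in liver PRM and 8 and 9 in lung PRM libraries of 71, that is 15.5% and 8.45%, 7.04% and 16.9%, and 11.3% and 12.7%. Over all genes tested the shares were 28.6% and 15%, 14.8% and 27.6%, and 20.4% and 16.8%, higher in each library. Ndufv3 and Sdhaf1 had H3K4me1 in both PRMK libraries and in neither lung PRM library (2.82%, against 3.48% of all genes), and Atp5e, Sdhd and Uqcr11 had the reverse (4.23%, against 2.28%). No respiratory chain gene had H3K4me1 in all 4 lung libraries (0%, against 7.81% of all genes tested). In liver PRM and lung PRM organoids 4 genes had it in all 4 libraries (5.63%, against 10.9%). In liver PRM against lung PRM organoids, 0 genes had it in the liver libraries alone (0.922% of all genes) and Sdhd in the lung libraries alone (1.41%, against 0.602%).

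**Figure D5:**
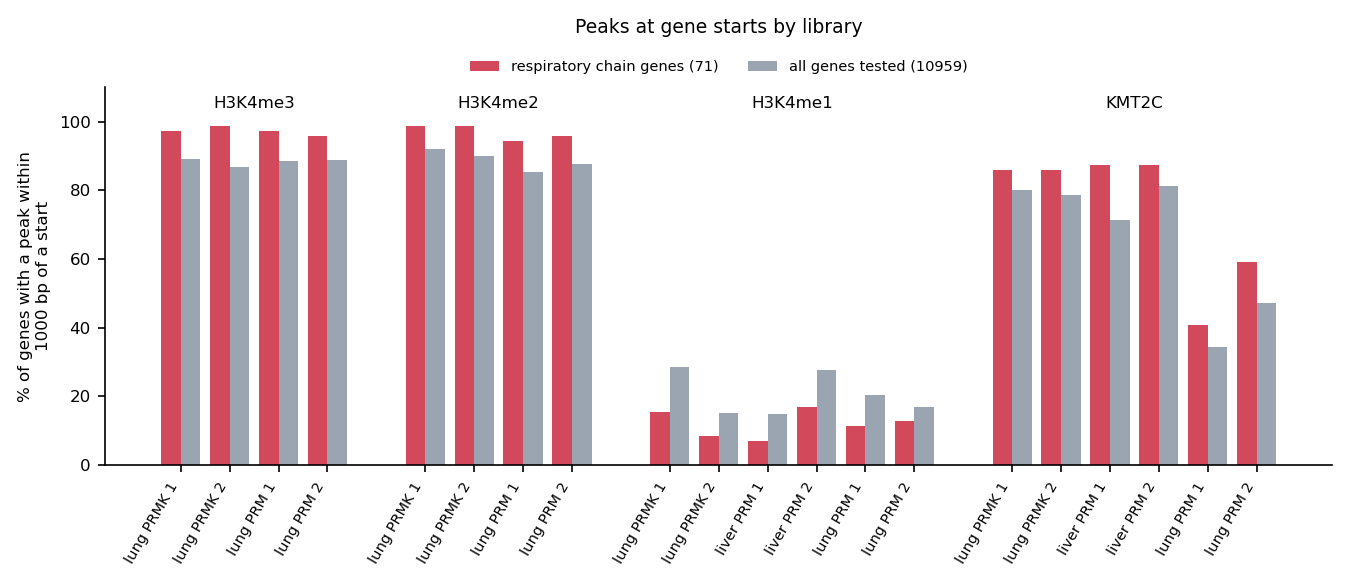
Percent of genes with a listed peak within 1000 bp of a start, by mark and library, for 71 respiratory chain genes in red and 10959 genes tested in grey. H3K4me3 and H3K4me2 are listed at nearly all respiratory chain genes, and H3K4me1 at fewer of them than of all genes in every library. KMT2C is listed at fewest genes of both sets in lung PRM libraries.

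Peaks with the KMT2C antibody were listed at 61 and 61 of 71 genes in lung PRMK, 62 and 62 in liver PRM, and 29 and 42 in lung PRM libraries. In the same order, these were 85.9% and 85.9%, 87.3% and 87.3%, and 40.8% and 59.2%. The shares of all genes tested were 80% and 78.7%, 71.4% and 81.2%, and 34.5% and 47.3%, also lowest in lung PRM libraries. The lists differed in length, with 187682 and 134561 peaks in lung PRMK, 65201 and 113129 in liver PRM and 9949 and 16681 in lung PRM libraries. The longest lists thus came from the organoids with the Kmt2c guide. Neither the edit nor the antibody was checked here, so these peaks are not read as KMT2C binding. Of the 71 genes, 15 had peaks in both lung PRMK libraries and in neither lung PRM library (21.1%, against 25.8% of all genes tested), and 17 had them in the liver PRM libraries alone (23.9%, against 22%). These shares were close to the background. The reverse was found for 0 genes in both comparisons (0.0821% and 0.0547% of all genes). ATAC lists were uneven, with 593 and 54201 peaks in lung PRMK, 345 and 141 in liver PRM and 64596 and 19834 in lung PRM libraries. They covered 1 and 48 of the 71 genes in lung PRMK, 0 and 0 in liver PRM and 56 and 54 in lung PRM libraries. In the same order, these were 1.41% and 67.6%, 0% and 0%, and 78.9% and 76.1%. The shares of all genes tested were 2.85% and 58%, 0.182% and 0.219%, and 62.3% and 57.9%. With the first lung PRMK list and both liver lists this short, a missing peak there says nothing about the promoter; 10 genes had a peak in both lung PRM and neither lung PRMK library (14.1%, against 7.53%), 0 the reverse (0.00912%), and 50 in both lung PRM and neither liver PRM library (70.4%, against 50.1%).

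The promoter letters of 4 genes show what the RNA and the marks stand beside. Cox6a1 and Ndufv3 had the 2 lowest unadjusted p-values among genes higher in PRMK organoids, Atp5l was the gene DESeq2 called, and Cox7c had the lowest fold change of the 83. Each run holds 250 bases before the RefSeq start and the first 10 from it, on the gene's strand, in GRCm38.p6, and capitals mark a match on either strand to the NRF1 core TGCGCA, to CCGGAAG, bound by GABPA and other ETS factors, or to the YY1 core AAGATGG. Cox6a1 lies at chr5:115348949-115349208 (minus strand), Ndufv3 at chr17:31519865-31520124 (plus strand), Atp5l at chr9:44920733-44920992 (minus strand) and Cox7c at chr13:86046786-86047045 (minus strand).
Cox6a1: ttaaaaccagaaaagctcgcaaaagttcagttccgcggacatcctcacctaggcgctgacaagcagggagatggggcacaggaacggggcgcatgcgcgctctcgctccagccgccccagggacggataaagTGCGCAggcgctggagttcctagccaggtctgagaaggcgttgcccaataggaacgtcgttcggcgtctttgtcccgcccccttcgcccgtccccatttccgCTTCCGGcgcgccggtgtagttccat
Ndufv3: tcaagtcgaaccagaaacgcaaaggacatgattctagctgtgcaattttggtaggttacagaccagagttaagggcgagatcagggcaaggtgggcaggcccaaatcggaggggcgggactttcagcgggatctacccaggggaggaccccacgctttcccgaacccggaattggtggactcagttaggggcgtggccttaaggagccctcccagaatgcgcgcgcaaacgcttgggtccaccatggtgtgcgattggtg
Atp5l: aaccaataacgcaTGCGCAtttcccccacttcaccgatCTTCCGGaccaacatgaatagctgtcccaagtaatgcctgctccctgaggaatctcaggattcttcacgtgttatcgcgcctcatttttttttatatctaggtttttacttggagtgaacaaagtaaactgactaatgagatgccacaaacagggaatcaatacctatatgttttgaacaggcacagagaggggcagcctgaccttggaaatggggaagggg
Cox7c: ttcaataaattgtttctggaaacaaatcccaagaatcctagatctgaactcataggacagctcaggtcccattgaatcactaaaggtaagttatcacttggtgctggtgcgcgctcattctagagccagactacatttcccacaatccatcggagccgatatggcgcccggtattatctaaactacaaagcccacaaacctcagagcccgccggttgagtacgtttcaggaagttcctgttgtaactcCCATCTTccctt

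Counting the start base as 0, the Cox6a1 window holds the NRF1 core at -118 and the ETS match at -16. Atp5l holds them at -237 and -212, with another ETS match at 24, past the printed run. Cox7c holds the YY1 core at -2, across the start, and Ndufv3 holds none of the 3. All 4 promoters had H3K4me3 and H3K4me2 peaks in every library of both groups. KMT2C peaks were listed at Atp5l and Ndufv3 in all 6 libraries, at Cox6a1 in every library but the first lung PRM one, and at Cox7c in the liver PRM libraries alone.

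Over the 71 genes, the window of 250 bases before and 50 after the start held the NRF1 core in 20 (28.2%), against 15.5% of all genes tested and 8.79% of the whole promoter table. The ETS letters were found in 20 (28.2%, against 19.1% and 9.93%) and the YY1 core in 11 (15.5%, against 7.99% and 7.28%). Any of the 3 was found in 41 (57.7%, against 36.2% and 22.8%), and all 3 together in 0 (0.356% of all genes tested). By complex, 17 of 32 genes of complex I held at least 1, all 7 of complex II, 3 of 5 of complex III, 5 of 12 of complex IV and 9 of 15 of complex V. The YY1 core was in 7 complex I promoters and 3 of complex V, and in none of complexes II and III. A match is a description of the letters in this window and not of binding.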

How the data were processed

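RNA values were the raw read counts per gene that the authors deposited, aligned with STAR 2.6.0a to GRCm38 per the submitters' processing notes; the counting tool and annotation are not given in the sources used here. Log2 fold changes with standard errors and p-values in the authors' deposited tables were copied only where named. A further 12 deposited per-library columns headed tpm were not used, so levels are not compared between genes. Peak lists were called by the authors per library with Bowtie2 and SEACR on mm10 for histone marks and KMT2C, per the submitters' processing notes, and deposited with a signal per peak; ATAC lists (Bowtie2 2.2.1, caller not given in the sources used here) were deposited with a score per peak. Signal and score only ranked peaks within a list. Depth of these libraries is unknown.

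Library groups came from the labels; the PRM columns, numbered 4 to 6, match the PRM titles as a group and not one by one. Counts were tested with edgeR 4.0.16 (TMM, filterByExpr, quasi-likelihood, Benjamini-Hochberg adjustment over all genes tested, threshold 0.05) in R 4.3.3, with only the 6 libraries of each comparison. Alternatives were DESeq2 1.42.0, edgeR's likelihood ratio test, DESeq2's size factors, no filter, leaving out each library, a replicate block and subunits alone. DESeq2 without single libraries, and peak counts and list medians without single libraries, were chosen after seeing the data. The RNA and peak steps were tested on simulated data. Deviations used log2(CPM + 1). Promoter starts and sequences came from RefSeq (GRCm38.p6). In the table of sgMeis2 and sgScramble organoids, 24552 of 24781 rows without a symbol were named by gene ID from the reference.

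Genes named were the highest and lowest fold change of each complex among those averaging at least 10 CPM, the 5 lowest p-values, every edgeR call and the pairs of widespread and tissue-restricted forms; others were named after their values were seen. A few genes are counted in the totals but not reported here by name. The genes and lists were chosen with earlier results of these data known. Intervals and limits for counts of 0 (3 counts per library) cover counting error only.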

Additional observations from a re-analysis of the deposited data

How the results depend on the processing

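In PRMK against PRM organoids, edgeR called 0 respiratory chain genes under each normalization, filter and left-out library. With all libraries its main test also called 0 of 13914 genes tested, and without PRMK 1 it called 0 of 14288. Those 0 calls therefore do not set the respiratory chain genes apart from other genes. DESeq2 called 1 with all libraries, 20 without PRM 4, 4 without PRM 5, 5 without PRM 6 and 0 without any 1 PRMK library. The median log2 fold change ran from -0.24 to 0.10 over left-out libraries, and in sgMeis2 against sgScramble organoids from -0.05 to 0.03, with 0 calls throughout. Of the 50 values of named genes, leaving out 1 library turned the sign of 20, 0 of which had passed a test; the cause was not tested. Over all genes tested of the chain, those above 0 numbered 50 of 83 without PRM 6, against 29 with it, and 22 of 84 without sgMeis2 3, against 42 with it. In PRMK against PRM organoids the lowest and highest log2 fold changes were -0.17 and 0.0193 for Sdhb, -0.11 and 0.49 for Uqcrb, -0.39 and 0.0484 for Cox4i1, -1.09 and 2.45 for Cox6a2, -0.28 and 0.18 for Cox6b1, -0.23 and 0.20 for Cox7a2, -0.45 and 0.12 for Cox7a2l, -0.0226 and 0.27 for Cox8a, -0.0837 and 0.39 for Ndufa4, -0.24 and 0.0577 for Atp5g1, and -0.33 and 0.0074 for Atp5g2. In sgMeis2 against sgScramble organoids they were -0.0705 and 0.36 for Cox4i1, -0.0600 and 0.82 for Atp5e, -0.10 and 0.28 for Cox6a1, -0.0111 and 0.28 for Cox6a2, -0.041 and 0.19 for Cox6b1, -0.16 and 0.00936 for Cox6b2, -0.0477 and 0.18 for Cox7a2l, -0.0267 and 0.0935 for Atp5g1, and -0.0381 and 0.45 for Atp5g3. Genes with H3K4me1 in both libraries numbered 3 in lung PRMK (7 within 2000 bp, 1 among the upper 50% of each list by signal, 6 to 11 with 1 library), 5 in liver PRM (2 within 500 bp, 8 within 2000 bp, 2 with at least 200 bp covered, 5 to 12 with 1 library) and 5 in lung PRM (3 within 500 bp, 2 among the upper 50%, 8 to 9 with 1 library). KMT2C in lung PRM numbered 29 (12 among the upper 50%), and ATAC in lung PRMK 1 (1 to 48 with 1 library). Fewer peaks or a narrower window can only lower such counts. No paired analysis was possible because PRMK and PRM libraries share fewer than 2 replicate numbers. In sgMeis2 and sgScramble, same-numbered libraries did not deviate together (r = 0.008, -0.0124 and 0.0286), and a replicate block gave 0 calls and a median of -0.02.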
